A study of Mus musculus with 3 samples.

Results

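The sodium pump genes described here were 3 beta subunits, Atp1b1, Atp1b2 and Atp1b3, and 3 FXYD regulators, Fxyd5, Fxyd6 and Fxyd7. They were taken by symbol from the 3 count matrices, as 6 of 31744 gene symbols, and all 6 were found in each matrix. The 6 were chosen from values measured in these same libraries, so every level, share and ratio given for them is a description with no test. They belong to a list of 11 genes, 4 for beta subunits and 7 for FXYD proteins.

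The sodium pump, or Na,K-ATPase, is the membrane enzyme that spends ATP to carry sodium out of the cell and potassium in. Neurons depend on it to restore the ion gradients that each action potential runs down. A catalytic alpha subunit moves the ions, a glycosylated beta subunit is needed for the alpha subunit to fold and reach the membrane, and a small FXYD protein can bind the pair and tune its ion affinity. Atp1b1 encodes the widespread beta subunit, Atp1b2 encodes the beta subunit also known as an adhesion molecule on glia, and Atp1b3 encodes a beta subunit found in many tissues. Fxyd5 encodes dysadherin, which also affects cell adhesion, Fxyd6 encodes phosphohippolin, and Fxyd7 encodes a regulator known from brain.

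The libraries came from mouse embryonic fibroblasts that were being turned into induced motor neurons by direct conversion, in which delivered transcription factors change cell identity without a stem cell stage. All 3 were of the Hb9::GFP genotype, a reporter that marks cells switching on the motor neuron gene Hb9. All 3 received LNI, a cassette spelled mLhx3-P2A-mNgn2x3HA-T2A-Isl1, and DDRR, spelled HRAS(G12V)-IRES-p53DD, so no library lacked either. RepSox, an inhibitor of TGF-beta receptor signalling, and 4 growth factors (BDNF, GDNF, CNTF, FGF) made up the supplements. The with-supplements library held GFP-positive cells at 14 dpi, the unit in which the labels give time, and the no-supplements library held GFP-positive cells at 14 dpi without them. The 4 dpi library was made with supplements too, and its sort was not for GFP but for low CellTrace-FarRed, a dye that dilutes as cells divide. Live cells were sorted in each case, after trypsin at 4 dpi and after papain with DNase at 14 dpi, so that time, sort and dissociation cannot be told apart between the time points. Age of the embryos and the number of cultures behind each library are not given in the sources used here.

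Each group was 1 library, so no difference has a replicate check and all intervals are 95% intervals that cover counting error only. After filtering, 2314 cells with supplements, 3716 without and 4492 at 4 dpi were kept. Their median cells held 14381, 10664 and 2313 unique molecular identifiers (UMIs), which count each captured RNA molecule 1 time. Between 3 and 5 barcodes were shared by any pair of libraries. No doublet caller was run. Levels are UMIs of a gene per 1000000 UMIs (CPM), summed over cells. In such sums, fewer cells using a gene and less of its RNA in each cell cannot be told apart. UMIs do not scale with transcript length, so genes were set side by side, although capture at the 3' end can differ between genes.

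Cells were classed by Stmn2, which encodes a neuronal regulator of microtubules, and Col1a1, which encodes a collagen of fibroblasts. Stmn2-only cells held at least 1 Stmn2 UMI and no Col1a1 UMI, and Col1a1-only cells the reverse. With supplements 1250 cells (54.0%) were Stmn2-only and 193 (8.34%) Col1a1-only. Without supplements the counts were 775 (20.9%) and 1296 (34.9%). At 4 dpi only 36 cells (0.801%) were Stmn2-only, against 1832 (40.8%) Col1a1-only. Cells holding both transcripts, 89, 210 and 12 in the same order, entered neither class, and 782, 1435 and 2612 cells held neither. Many cells lay at the edge of the gate. Exactly 1 Stmn2 UMI was held by 162 Stmn2-only cells with supplements, 128 without and 24 at 4 dpi. Exactly 1 Col1a1 UMI was held by 54, 250 and 705 Col1a1-only cells in the same order. The gates were drawn on unthinned counts, so the class shares also depend on depth, which was lowest at 4 dpi.

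The other markers of the classes mostly went with their names. The summed level of 16 neuronal markers was 11619 CPM in Stmn2-only and 4325 in Col1a1-only cells with supplements, and 10662 and 2923 without. The summed level of 16 fibroblast markers ran the other way, 1485 and 11446 with supplements and 1106 and 8315 without. In single cells the median of Tubb3, a neuronal tubulin, was 10.4 per 10000 UMIs in Stmn2-only and 0.518 in Col1a1-only cells with supplements, and 8.17 and 0 without. The median of Col1a2, a collagen chain that was not part of the gate, was 0.888 and 11.1 with supplements and 1.18 and 16.7 without. The Col1a1-only class was thus not free of neuronal transcripts, with the neurofilament gene Nefl at 1824 CPM with supplements and 920 without. Genes of dividing cells (4 markers) summed to 87.4 CPM in Stmn2-only and 499.9 in Col1a1-only cells with supplements, and to 67.2 and 404.9 without. Of 6 astrocyte markers, summing to between 28.8 and 69.0 CPM over these classes, Gjb6 was at 0, and Gfap and Aqp4 were at 0 in Col1a1-only cells with supplements. Slc1a3 was the highest of these markers in Col1a1-only cells, at 52.8 CPM with supplements and 63.3 without, and Slc1a2 in Stmn2-only cells, at 20.1 and 14.9. Mnx1, the gene also called Hb9 whose reporter was the basis of the 14 dpi sort, had a UMI in 13.9% of kept cells with supplements and 15.2% without. The part of these other transcripts in the values of the pump genes was not tested.

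Among the beta subunits, Atp1b1 was higher in Stmn2-only than in Col1a1-only cells of both 14 dpi libraries. Atp1b2 was at its highest without supplements, and Atp1b3 stayed within a narrow span. Over the 10 groups of library and class with at least 50 cells, log2(CPM + 10) of Atp1b1 spanned 4.55. In Stmn2-only cells Atp1b1 reached 1187 CPM (1172 to 1202) with supplements and 558 (544 to 573) without. In Col1a1-only cells it was at 98.0 CPM (87.1 to 109.8) with supplements, 41.1 (38.0 to 44.4) without and 77.0 (69.3 to 85.3) at 4 dpi. The highest Col1a1-only value lay below the lowest of the 14 dpi Stmn2-only values. Cells with both gate genes were at 734 CPM with supplements and 325 without, and cells with neither at 380 and 154.

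The log2 ratio of Atp1b1, Stmn2-only over Col1a1-only, was 3.60 (3.43 to 3.77) with supplements and 3.76 (3.65 to 3.88) without, that is 12.1-fold and 13.6-fold. Its size depended on how the classes were drawn: over the other gates and filters tried it ran from 1.88 to 4.73 with supplements and from 2.33 to 4.71 without, always above 0. In the with-supplements library 1 Col1a1-only cell held 91 of the 295 Atp1b1 UMIs of that class, and without that cell the class stood at 69.0 CPM and the ratio at 4.10. After thinning each cell to 1000 UMIs, 56.3% of Stmn2-only and 9.38% of Col1a1-only cells with supplements held an Atp1b1 UMI. Without supplements the shares were 34.5% and 3.33%. Unthinned shares were 89.3% and 33.7% where the medians were 15350 and 14271 UMIs per cell, and 84.8% and 14.8% where they were 11581 and 10616. Before thinning, Atp1b1 was therefore found in most Stmn2-only cells and in a minority of Col1a1-only cells of comparable depth.

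Atp1b2 had the opposite order with supplements, at 2.69 CPM (2.03 to 3.48) in Stmn2-only and 9.63 (6.45 to 13.8) in Col1a1-only cells, a log2 ratio of -1.84 (-2.51 to -1.14). Without supplements it was at 22.7 (19.8 to 25.8) and 27.2 (24.7 to 29.9), a log2 ratio of -0.26 (-0.50 to -0.03). At 4 dpi Atp1b2 was close to absent, with 12 UMIs in the whole library and 0.983 CPM (0.508 to 1.72). The gene known from glia was thus not higher in Stmn2-only cells of either 14 dpi library.

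Atp1b3 was at 49.96 CPM (47.0 to 53.1) in Stmn2-only and 51.5 (43.7 to 60.3) in Col1a1-only cells with supplements, with overlapping intervals and a log2 ratio of -0.04 (-0.29 to 0.21). Without supplements it was at 57.2 (52.6 to 62.0) and 37.3 (34.3 to 40.4), with intervals apart and a log2 ratio of 0.62 (0.45 to 0.79). At 4 dpi it was at 79.5 CPM (71.7 to 87.9) in Col1a1-only cells.

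**Figure D1:**
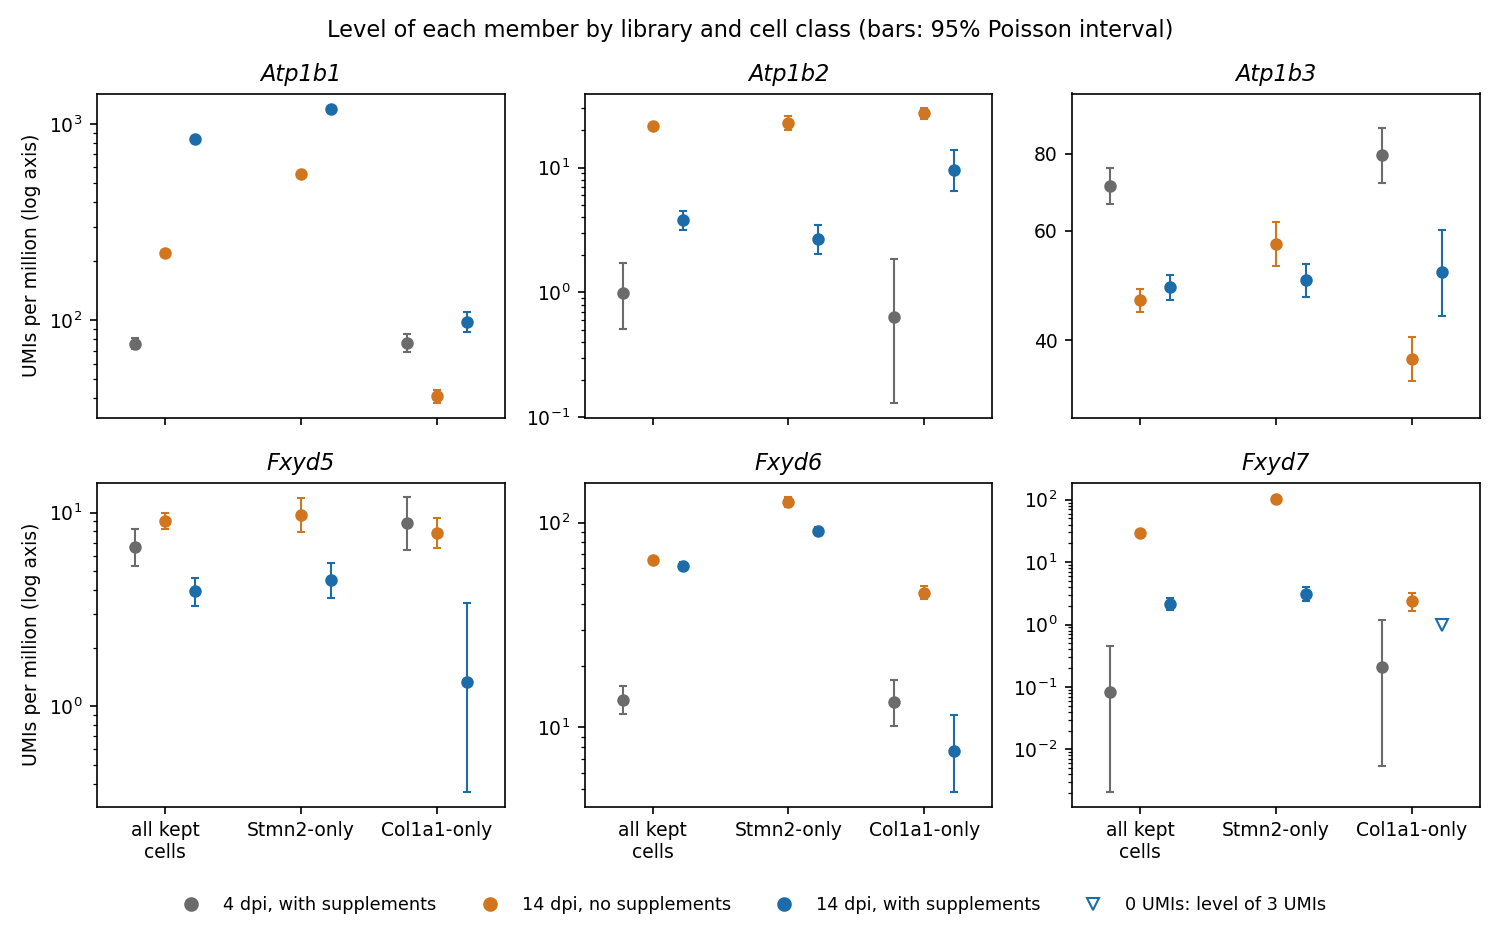
Levels of the 6 genes in CPM on log axes, by library (colour) and cell class, with exact Poisson 95% intervals; the open triangle marks 3 UMIs where Fxyd7 had 0. Atp1b1 and Fxyd6 were higher in Stmn2-only than in Col1a1-only cells of both 14 dpi libraries, and Fxyd7 reached 103 CPM in Stmn2-only cells without supplements alone.

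Of the FXYD regulators, Fxyd6 was higher in Stmn2-only than in Col1a1-only cells of both 14 dpi libraries, Fxyd7 was high in the Stmn2-only cells of 1 library, and Fxyd5 was low. Fxyd6 was at 91.5 CPM (87.5 to 95.6) in Stmn2-only and 7.64 (4.84 to 11.5) in Col1a1-only cells with supplements. Without supplements it was at 126 (119 to 133) and 45.4 (42.1 to 48.9). The log2 ratio of the classes was 3.58 (2.99 to 4.24) with supplements and 1.47 (1.34 to 1.60) without, with a range of 1.72 to 3.87 and of 1.08 to 1.72 over the alternatives. At 4 dpi Fxyd6 stood at 13.3 CPM (10.2 to 17.0) in Col1a1-only cells. At 1000 UMIs per cell it was detected in 8.48% of Stmn2-only cells and in 0 of 192 Col1a1-only cells with supplements, and in 11.0% and 3.72% without. The 0 came from 1 draw of UMIs, and at 500 UMIs per cell 4 of 193 cells (2.07%) of that class held an Fxyd6 UMI. Unthinned shares were 50.3% and 10.4% with supplements and 57.8% and 28.5% without, at the median depths given for Atp1b1.

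Fxyd7 was almost entirely a transcript of the no-supplements library. It was at 103 CPM (96.5 to 109.0) in the Stmn2-only cells of that library, from 1055 UMIs. In Stmn2-only cells with supplements it was at 3.11 CPM (2.41 to 3.96), from 66 UMIs of which 10 lay in 1 cell. Col1a1-only cells held 37 Fxyd7 UMIs without supplements, or 2.35 CPM (1.66 to 3.24), 0 with supplements, which allows up to 0.997 CPM, and 1 at 4 dpi. The log2 ratio of Stmn2-only over Col1a1-only cells was 5.45 (4.97 to 5.96) without supplements. With supplements, with the 0 of Col1a1-only cells set to 3 UMIs, the level was 3.12-fold higher in Stmn2-only cells. The lower limit of that log2 ratio, from counting error, was 1.30. The ratio ran from 3.06 to 5.99 without supplements and from 0.71 to 3.75 with them over the alternatives. The share of Stmn2-only cells without supplements holding an Fxyd7 UMI was 7.38% at 1000 UMIs per cell, against 0.232% of Col1a1-only cells, and 24.3% against 2.31% before thinning.

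Fxyd5 was low throughout. In Stmn2-only cells it was at 4.48 CPM (3.62 to 5.47) with supplements and 9.72 (7.91 to 11.8) without. In Col1a1-only cells it was at 1.33 (0.362 to 3.40) with supplements, 7.88 (6.56 to 9.40) without and 8.86 (6.38 to 12.0) at 4 dpi. The first of these Col1a1-only values rested on 4 UMIs, 3 of them in 1 cell. The class ratio, Stmn2-only over Col1a1-only, was 1.75 (0.35 to 3.66) on the log2 scale with supplements. It was 3.67 with the cell richest in Fxyd5 left out of each class. Without supplements the ratio was 0.30, with an interval that held 0 (-0.09 to 0.69).

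Promoter sequences upstream of the annotated start are shown for Atp1b1 and Fxyd6, which were both higher in Stmn2-only cells of both 14 dpi libraries, and for Atp1b3, which differed less than 2-fold between the classes. They come from RefSeq on GRCm38.p6, another build than the count tables use, and the table used here held an entry for 4 of the 6 genes. The entry for Fxyd5 overlaps annotated exons, among them the last exon of Fxyd7, its upstream neighbour on the same strand, and is not printed. Whether reads of these neighbours were mixed in counting was not tested. The cassette factors are a basic helix-loop-helix protein, Ngn2, and the homeodomain proteins Lhx3 and Isl1, so each stretch was searched on both strands for CANNTG, the E-box that the first kind reads, and for TAAT, a homeodomain core. Sequences run 5' to 3' on the strand of the gene, in lower case, with CANNTG matches in capitals.
Atp1b1: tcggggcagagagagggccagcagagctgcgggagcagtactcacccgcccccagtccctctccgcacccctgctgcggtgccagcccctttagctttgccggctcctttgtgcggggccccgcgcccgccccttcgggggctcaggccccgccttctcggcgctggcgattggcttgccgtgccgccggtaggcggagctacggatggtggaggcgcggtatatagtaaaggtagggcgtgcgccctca
Atp1b3: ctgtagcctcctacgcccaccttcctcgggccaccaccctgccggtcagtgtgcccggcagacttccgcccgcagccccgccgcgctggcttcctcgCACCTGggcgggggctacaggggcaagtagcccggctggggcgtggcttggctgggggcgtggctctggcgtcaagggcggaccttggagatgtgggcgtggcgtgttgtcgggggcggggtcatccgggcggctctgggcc
Fxyd6: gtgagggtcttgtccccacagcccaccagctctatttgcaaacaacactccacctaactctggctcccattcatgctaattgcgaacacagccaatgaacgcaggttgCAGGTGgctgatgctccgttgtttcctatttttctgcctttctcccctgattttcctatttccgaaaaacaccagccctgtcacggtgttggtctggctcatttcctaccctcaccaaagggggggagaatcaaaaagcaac
The Atp1b1 stretch lies at chr1:164458356-164458605 on the minus strand, is 250 bases long, has a GC content of 70.4% and holds neither motif. The Atp1b3 stretch lies at chr9:96364443-96364681 on the minus strand and is 239 bases long, 11 bases having been left off for an annotated exon. It holds 1 CANNTG match 153 bases before the start, no TAAT, and 73.6% GC. The Fxyd6 stretch lies at chr9:45369935-45370184 on the plus strand, is 250 bases long with 50.4% GC, and holds 1 CANNTG match 142 bases before the start and 1 TAAT match. Of 32851 promoters of 250 bases in that table, 66.2% held CANNTG and 54.9% held TAAT on either strand, and their median GC content was 52.4%. A match is a description of these letters only, and the genes with the class difference did not share a motif content.

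Between the 14 dpi libraries, the beta genes went in different directions. Over all kept cells Atp1b1 was at 837 CPM (828 to 847) with supplements and 220.5 (216 to 225) without, and Atp1b2 at 3.78 (3.18 to 4.46) and 21.6 (20.3 to 23.0). Atp1b3 was at 48.7 (46.5 to 51.0) and 46.3 (44.4 to 48.4), with overlapping intervals. The log2 ratio, no supplements over with supplements, was -1.93 (-1.96 to -1.89) for Atp1b1, 2.51 (2.26 to 2.78) for Atp1b2 and -0.07 (-0.16 to 0.02) for Atp1b3, whose ratio was 0.10 at the class shares described next.

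The share of Stmn2-only cells, where Atp1b1 was high, also differed between these libraries, at 54.0% with supplements and 20.9% without. Within Stmn2-only cells its log2 ratio was -1.09 (-1.13 to -1.05), and within Col1a1-only cells -1.25 (-1.46 to -1.05). The latter was -0.87 with the cell richest in Atp1b1 left out of each library's class. Those cells held 91 UMIs with supplements and 55 without. Over all alternatives the Col1a1-only ratio of Atp1b1 ran from -1.68 to -0.67, so that it was not always past 2-fold. With the class levels of the no-supplements library weighted by the class shares of the with-supplements library, an alternative added after seeing the data, the ratio was -1.12. Atp1b1 was thus lower without supplements in both classes, and the pooled ratio was larger than either.

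Atp1b2 was higher without supplements in both classes, with a log2 ratio of 3.08 (2.65 to 3.52) in Stmn2-only and 1.50 (0.95 to 2.09) in Col1a1-only cells. Atp1b3 was slightly higher in Stmn2-only cells, by 0.19 (0.05 to 0.34), and lower in Col1a1-only cells, at -0.47 (-0.72 to -0.20). The Atp1b3 differences were under 2-fold in both classes.

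Of the regulators, Fxyd7 had the largest ratio of the 6 genes between the 14 dpi libraries over all kept cells. It stood at 2.15 CPM (1.70 to 2.68) with supplements and 29.8 (28.2 to 31.4) without, a log2 ratio of 3.79 (3.47 to 4.14), although the library without supplements held a smaller share of Stmn2-only cells. In Stmn2-only cells the ratio was 5.04 (4.68 to 5.42), and at the class shares of the other library it was 4.88. In Col1a1-only cells Fxyd7 was 2.36-fold higher without supplements, from 37 UMIs against 0 set to 3. The lower limit of that log2 ratio was 0.87. The value turned to a log2 ratio of -0.02 when the gates were drawn from counts thinned to 1000 UMIs.

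Fxyd6 over all kept cells was at 61.3 CPM (58.8 to 63.9) with supplements and 65.9 (63.6 to 68.3) without, a log2 ratio of 0.10 (0.03 to 0.18). The near-equal pooled values covered larger differences inside the classes: 0.46 (0.36 to 0.56) in Stmn2-only cells and 2.57 (1.97 to 3.24) in Col1a1-only cells, the latter from 1.04 to 2.87 over the alternatives. Fxyd5 was at 3.91 CPM (3.30 to 4.61) with supplements and 9.05 (8.20 to 9.96) without, a ratio of 1.21 (0.93 to 1.49), and of 1.12 (0.70 to 1.54) within Stmn2-only cells. In Col1a1-only cells the Fxyd5 ratio was 2.57 (1.18 to 4.47). It was 4.42 with the cell richest in Fxyd5 left out of each library's class. Those cells held 3 of the 4 UMIs with supplements and 12 of 124 without.

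**Figure D2:**
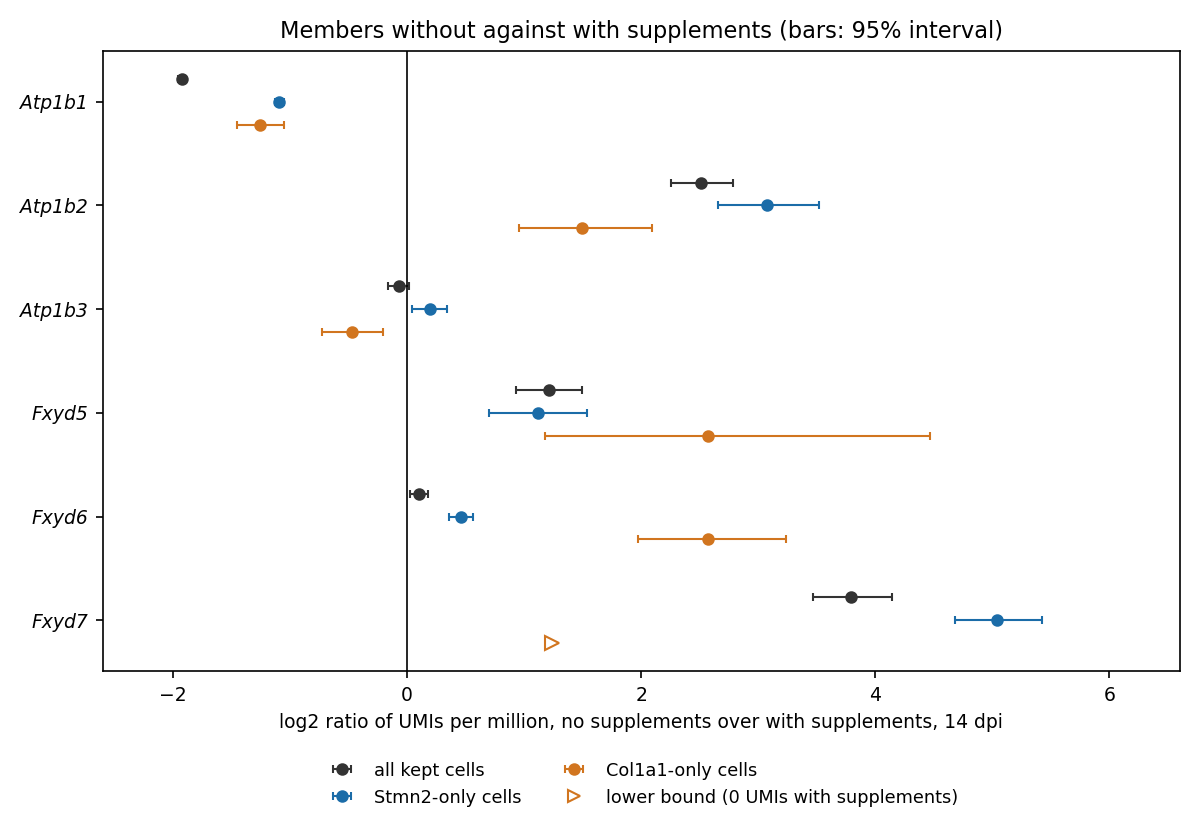
Log2 ratios of CPM, no supplements over with supplements at 14 dpi, for the 6 genes, over all kept cells (black), Stmn2-only (blue) and Col1a1-only cells (orange), with 95% Clopper-Pearson intervals; the open triangle is a lower bound. Atp1b1 lay below 0 and Atp1b2 and Fxyd7 above 0 in each set of cells.

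At 4 dpi the levels were 76.0 CPM (71.2 to 81.1) for Atp1b1 and 70.9 (66.2 to 75.8) for Atp1b3, which overlapped, then 13.7 (11.7 to 15.9) for Fxyd6 and 6.64 (5.27 to 8.25) for Fxyd5. Fxyd7 had 1 UMI in the library. From 4 to 14 dpi with supplements, Atp1b1 was higher by 3.46 (3.37 to 3.56) on the log2 scale and Fxyd6 by 2.16 (1.94 to 2.40), while Atp1b3 was at -0.54 (-0.66 to -0.42) and Fxyd5 at -0.76 (-1.16 to -0.35). Without supplements at 14 dpi, a library set against the same 4 dpi cells, the values were 1.54 for Atp1b1, 2.27 for Fxyd6, -0.61 for Atp1b3 and 0.45 for Fxyd5. Atp1b2 was higher than at 4 dpi by 1.94 with and 4.46 (3.64 to 5.41) without supplements, and Fxyd7, against 1 UMI, by 4.71 (2.19 to 10.03) and 8.51 (6.03 to 13.81).

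Within Col1a1-only cells alone, the log2 ratio of Atp1b1, 14 over 4 dpi with supplements, was 0.35 and Fxyd6 was lower, at -0.80. The Atp1b1 value rested on 1 cell: without the cell that held 91 UMIs the 14 dpi class stood at 69.0 CPM, below the 77.0 at 4 dpi. The share of Stmn2-only cells was 0.801% at 4 dpi and 54.0% at 14 dpi with supplements, from gates on unthinned counts at unlike depths. Its part in the pooled time differences was not tested. The 36 Stmn2-only cells at 4 dpi held 7 Atp1b1, 10 Atp1b3 and 3 Fxyd6 UMIs and none of Atp1b2, Fxyd5 or Fxyd7. A count of 0 allowed up to 30.4 CPM, so the genes without a UMI were not measurable at this depth. Atp1b1 was at 71.0 CPM (28.5 to 146.3) in these cells, below both 14 dpi Stmn2-only values. Its log2 ratio, Stmn2-only over Col1a1-only at 4 dpi, was -0.12 (-1.44 to 0.94).

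The counts of members past 2-fold are given beside those of all genes at 10 CPM or more on either side, without a reading, since the members were chosen on these values. Between the 14 dpi libraries over all kept cells 5 of the 6 members reached 10 CPM, all but Fxyd5, and 2 (Atp1b2 and Fxyd7) were higher and 1 (Atp1b1) lower without supplements, where 5.18% of 9374 genes were higher and 4.79% lower. In Stmn2-only cells the same 5 reached 10 CPM and the same 3 were past 2-fold, beside 6.86% of 9454 genes higher and 4.41% lower. In Col1a1-only cells 4 members reached 10 CPM, of which Atp1b2 and Fxyd6 were higher and Atp1b1 lower, beside 4.89% of 9022 genes higher and 5.51% lower. From 4 to 14 dpi with supplements 3 members reached 10 CPM and 2, Atp1b1 and Fxyd6, were higher, beside 15.4% of 9415 genes higher and 10.1% lower. For 14 dpi without supplements over 4 dpi the members higher were 4 of 5, all but Atp1b3, beside 15.7% of 9474 genes higher and 9.64% lower. Between Stmn2-only and Col1a1-only cells with supplements 2 of 3 members were higher, Atp1b1 and Fxyd6, beside 14.6% of 9509 genes higher and 11.2% lower. Without supplements 3 of 5 were higher, Atp1b1, Fxyd6 and Fxyd7, beside 17.0% of 9688 genes higher and 9.77% lower. The median log2 ratio of the members that reached 10 CPM, in the same order, was 0.10, 0.46, 0.52, 2.16, 2.27, 3.58 and 1.47, and that of all genes -0.03, 0.06, -0.00, 0.11, 0.09, 0.18 and 0.22.

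As a mix of isoforms, the beta transcripts of Stmn2-only cells were nearly all Atp1b1: 95.8% of the UMIs of the 3 beta genes with supplements and 87.5% without. In Col1a1-only cells Atp1b1 made up 61.6% with supplements, 38.9% without and 49.0% at 4 dpi. The 61.6% came from 295 of 479 UMIs, and 91 of the 295 lay in 1 cell. At 14 dpi the tenth of Col1a1-only cells with the most Atp1b1 held 81.0% of its UMIs with supplements and 90.4% without. The rest of the mix differed between the libraries. Atp1b3 held 32.4% with supplements, 35.3% without and 50.6% at 4 dpi in Col1a1-only cells, and Atp1b2 held 6.05%, 25.8% and 0.403%. Without supplements the Col1a1-only mix thus held all 3 beta genes, while at 4 dpi it was Atp1b1 and Atp1b3. The Atp1b2 share without supplements (23.7% to 28.0%) lay below those of Atp1b1 (36.6% to 41.3%) and Atp1b3 (33.0% to 37.7%). In that class Atp1b1 had a UMI in 192 of 1296 cells, Atp1b2 in 314 and Atp1b3 in 417.

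The order of levels across the 6 genes followed the same pattern. In Stmn2-only cells without supplements it was Atp1b1, Fxyd6, Fxyd7, Atp1b3, Atp1b2 and Fxyd5, with no overlap between neighbours. In Stmn2-only cells with supplements Atp1b1, Fxyd6 and Atp1b3 came first and apart, and at the low end the interval of Fxyd7 overlapped those of Fxyd5 and Atp1b2. In Col1a1-only cells without supplements Fxyd6, Atp1b1 and Atp1b3 came first with overlapping neighbours, then Atp1b2, Fxyd5 and Fxyd7.

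Among the UMIs of Fxyd5, Fxyd6 and Fxyd7, Fxyd6 held 92.3% in Stmn2-only cells with supplements. Without supplements Stmn2-only cells had a mix of 52.8% Fxyd6, 43.1% Fxyd7 and 4.08% Fxyd5. Col1a1-only cells without supplements had 81.6% Fxyd6, 14.2% Fxyd5 and 4.23% Fxyd7. At 4 dpi Col1a1-only cells had 59.4% Fxyd6 and 39.6% Fxyd5. With supplements the Col1a1-only mix rested on 27 UMIs, 85.2% of them Fxyd6. Fxyd1 was not part of this mix. In Col1a1-only cells with supplements it held 62 UMIs, more than the 23 of Fxyd6. Without supplements it held 373, fewer than the 714 of Fxyd6. The Fxyd5 share was higher in Col1a1-only than in Stmn2-only cells without supplements, while with supplements its Col1a1-only interval (4.19% to 33.7%, from 4 UMIs of which 3 lay in 1 cell) held the 4.52% of Stmn2-only cells. The Fxyd7 share was above 5% in 2 of the groups plotted, all kept cells and Stmn2-only cells without supplements.

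**Figure D3:**
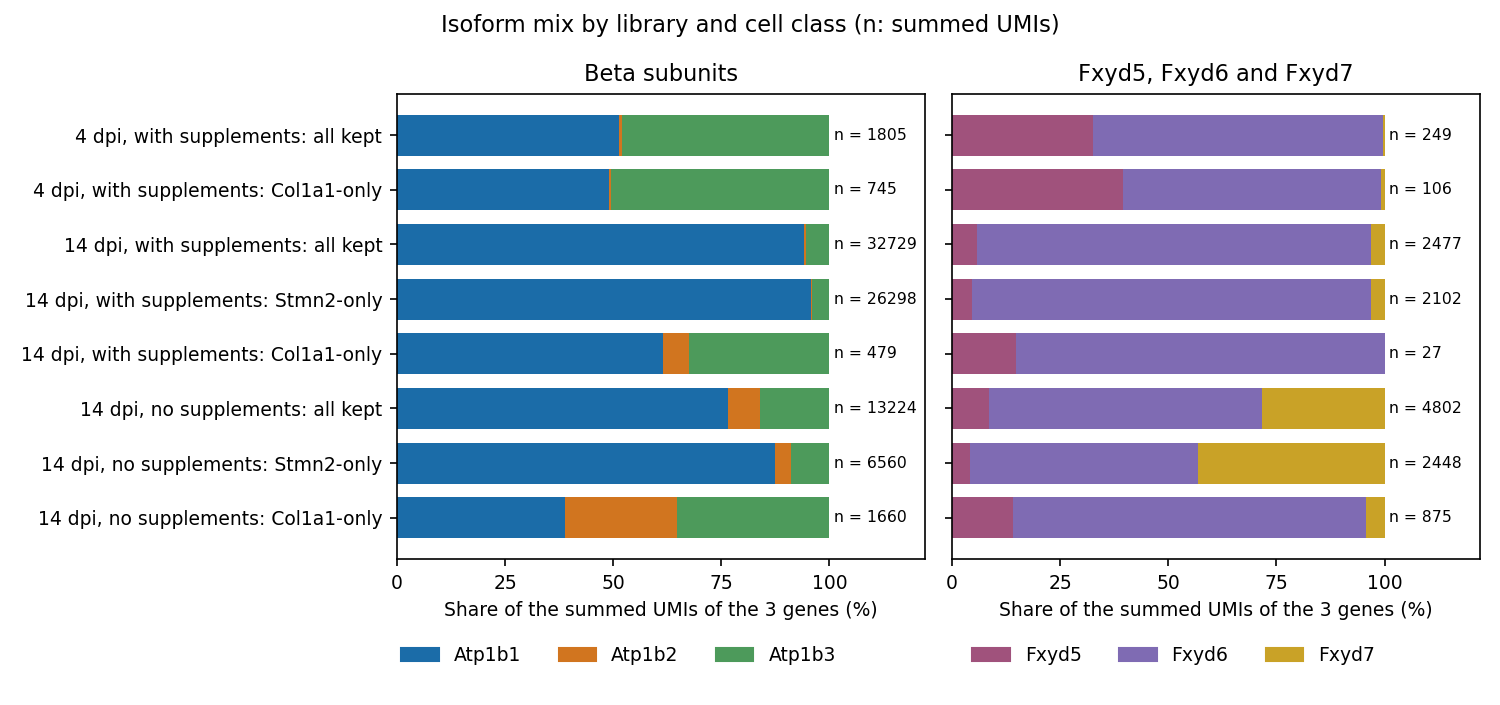
Share of each gene in the summed UMIs of the 3 beta genes (left) and of Fxyd5, Fxyd6 and Fxyd7 (right), in percent, by library and class, with the number of UMIs beside each bar. Atp1b1 filled 95.8% and 87.5% of the beta bars of Stmn2-only cells, and Fxyd7 filled 43.1% of 1 FXYD bar, that of Stmn2-only cells without supplements.

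Cell by cell, at 5000 UMIs per cell, Atp1b1 was the beta gene with the most UMIs in 80.5% of 1159 Stmn2-only cells with supplements and in 68.7% of 722 without. In Col1a1-only cells that share was 14.0% of 186 cells and 7.21% of 1193, and 59.7% and 65.1% of them held no beta UMI at this depth. Atp1b3 led in 19.4% and 14.9% of Col1a1-only cells, and Atp1b2 in 4.30% and 10.5%. The isoform that led the summed counts of Stmn2-only cells was therefore also the one most often found in their single cells.

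Atp1b1 and Fxyd6 were also graded along Stmn2, in cells thinned to 5000 UMIs and split by their Stmn2 UMIs. With supplements, Atp1b1 was at 329, 716, 1175 and 1725 CPM in cells with 0, 1 to 2, 3 to 7, and 8 or more Stmn2 UMIs. Without supplements it was at 102, 342, 680 and 828. Each step was upward, and each value without supplements lay below its counterpart, including among cells with no Stmn2 UMI. Fxyd6 was at 15.6, 38.7, 78.2 and 153 CPM with supplements and at 45.6, 91.0, 141 and 194 without, also upward at each step but higher without supplements.

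Fxyd7 had the steepest grade without supplements, at 5.37, 14.4, 65.5 and 273 CPM. With supplements it stayed between 0.823 and 4.60 CPM in all 4 bins. The library difference of Fxyd7 was thus present among the cells with the most Stmn2, 478 with supplements and 208 without. Atp1b3 showed no such order, at 45.0, 54.3, 38.5 and 48.5 CPM with supplements and 41.2, 49.1, 65.5 and 48.1 without. Atp1b2 was between 18.8 and 22.6 CPM in the lower 3 bins and at 36.5 in the highest without supplements and at 6.24 or less in each bin with them.

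**Figure D4:**
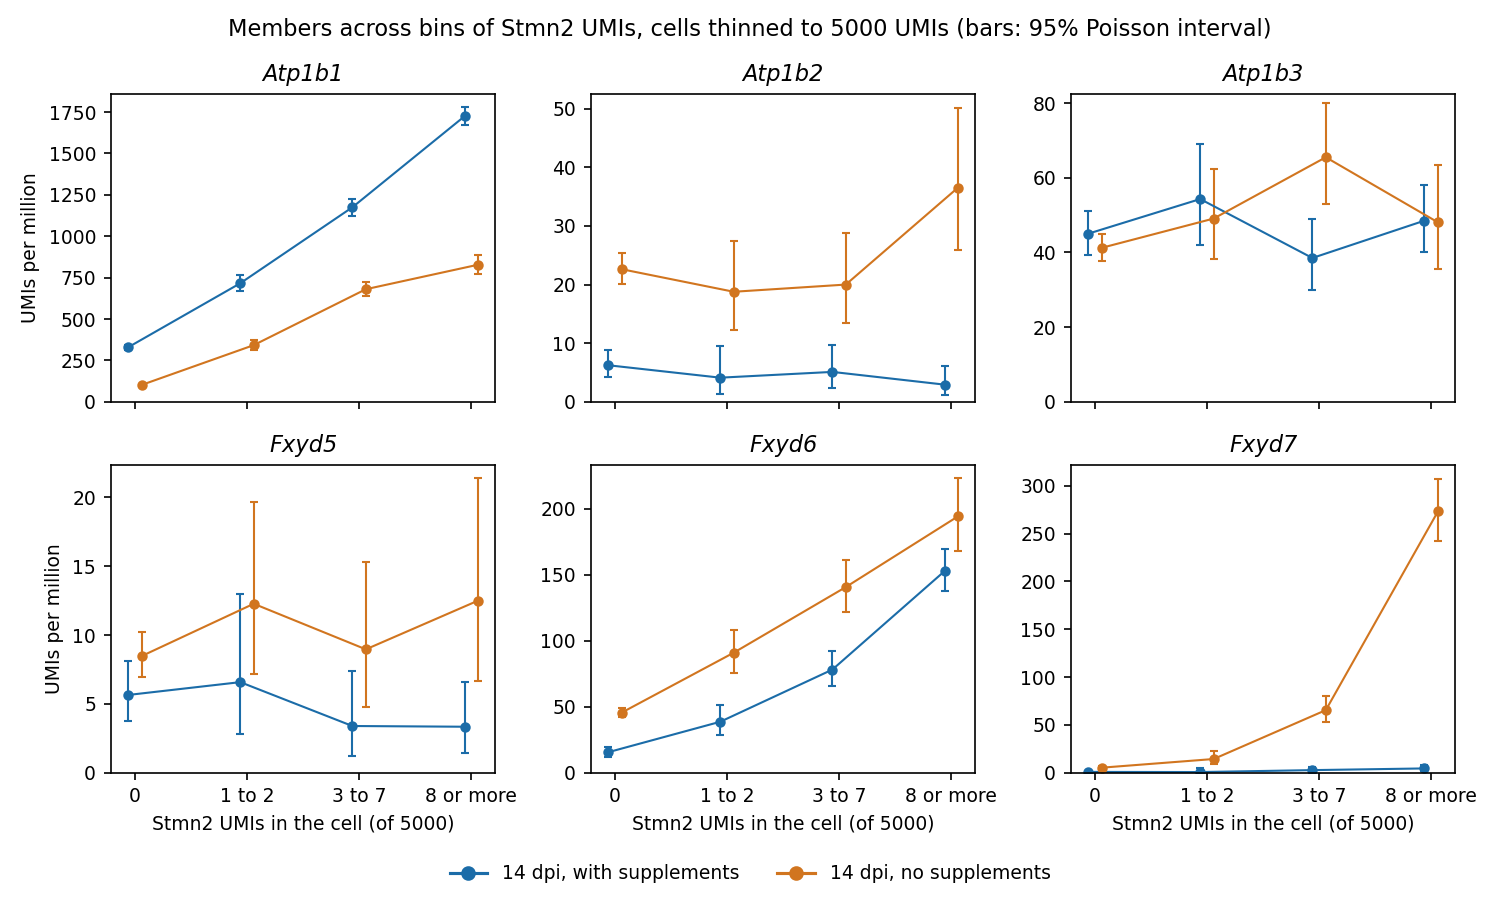
Levels of the 6 genes in CPM across bins of Stmn2 UMIs, in cells thinned to 5000 UMIs, with supplements (blue) and without (orange), with exact Poisson 95% intervals. Atp1b1 and Fxyd6 were higher at each step in both libraries, and Fxyd7 reached 273 CPM in the highest bin without supplements.

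Along Col1a1 the order of Atp1b1 was turned, as was that of Fxyd7 without supplements, at 37.8, 11.3, 4.40 and 2.23 CPM in bins of rising Col1a1. Fxyd6 did not fall at each step, at 71.3, 55.5, 54.4 and 58.5 CPM without supplements. With supplements Fxyd6 was at 64.3, 22.2, 3.64 and 15.4 CPM, the last 3 from 10, 1 and 3 UMIs. Without supplements Atp1b1 was at 289.9, 119.8, 26.4 and 23.4 CPM in cells with 0, 1 to 2, 3 to 7, and 8 or more Col1a1 UMIs, and Atp1b2 at 19.0, 21.1, 35.7 and 37.3. With supplements Atp1b1 was at 894, 287, 171 and 51.3, the last from 39 cells, and Atp1b2 at 4.18, 8.89, 14.5 and 25.6. The point values of Atp1b1 were lower and those of Atp1b2 higher at each step in both libraries. For Atp1b1 the last step without supplements was not resolved (19.4 to 35.0 and 16.9 to 31.6). Atp1b2 intervals overlapped between neighbouring bins in both libraries, though not between the first and last bin. With supplements its bins with Col1a1 rested on 4, 4 and 5 UMIs.

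Fxyd7 was unevenly spread among the Stmn2-only cells without supplements: 75.7% of them held none, and the tenth of cells with the most held 84.0% of its UMIs, up to 49 in 1 cell. At 5000 UMIs per cell, 218 of 722 held Fxyd6 without Fxyd7, 63 held Fxyd7 without Fxyd6 and 58 held both. With supplements the counts were 325, 6 and 7 of 1159. Of Col1a1-only cells without supplements, 4 of 1193 held both. Free RNA and doublets can put UMIs of both genes under 1 barcode, and their part in these counts was not tested.

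The 121 Stmn2-only cells without supplements that held Fxyd7 at that depth were set beside the 601 that did not. Atp1b1 was at 757 and 568 CPM and Atp1b2 at 44.6 and 19.3. Atp1b3 was at 51.2 and 56.6 CPM. Stmn2 was at 1869 and 813 and Tubb3 at 1245 and 896, so the cells with Fxyd7 also held more of these neuronal transcripts, and their median cells had 11697 and 12073 UMIs before thinning. The part of this in the pump genes' values was not tested.

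Of the remaining beta and FXYD genes, only Fxyd1, which encodes phospholemman, reached 10 CPM over all kept cells of a library. It was at 4.21 CPM with supplements and 14.3 without, a log2 ratio of 1.76 (1.51 to 2.02). That ratio was 1.93 (1.36 to 2.53) in Stmn2-only cells and 0.20 (-0.19 to 0.62) in Col1a1-only cells. Between the classes Fxyd1 went against Fxyd6: it was at 20.6 CPM in Col1a1-only and 1.89 in Stmn2-only cells with supplements, and at 23.7 and 7.20 without. Fxyd2, Fxyd3 and Fxyd4 stayed at or below 4.38 CPM over all kept cells of each library. Atp1b4 had 3 UMIs with supplements, 1 without and 0 at 4 dpi. Of the 11 genes, 5 reached 10 CPM in the comparison of Stmn2-only cells between the 14 dpi libraries, each of them a member. Without supplements 2 of the 5 were at least 2-fold higher and 1 lower, beside 6.86% of 9454 genes higher and 4.41% lower.

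Other ion transport genes of Stmn2-only cells were counted in the same comparison of the 14 dpi libraries. Of 9 calcium pumps 5 reached 10 CPM, with 1 at least 2-fold higher without supplements and a median log2 ratio of 0.27. That 1 was Atp2b2, a plasma membrane calcium pump, at 4.62 CPM with supplements and 14.3 without, while its relatives Atp2b4 (9.85 and 17.4) and Atp2b1 (617 and 744) were under 2-fold. Of 24 sodium-coupled transporters 16 reached 10 CPM, with 2 higher, none lower and a median of 0.31. These were Slc4a4, a sodium bicarbonate cotransporter, at 4.29 and 11.5 CPM, and Slc6a8, the creatine transporter, at 23.0 and 58.1, and Slc24a3, a sodium, potassium and calcium exchanger, was at 10.04 and 5.54. Nkain3, of a family named for interaction with the pump, was at 55.2 and 41.8 CPM. In that comparison all genes had a median of 0.06, with 6.86% of 9454 genes at least 2-fold higher and 4.41% lower. Atp2b2 and Slc4a4 reached 10 CPM only without supplements, and Slc24a3 only with them.

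Across the 10 groups of library and class, the genes most like each member were listed by Pearson's r of log2(CPM + 10) among 10613 genes. The groups share libraries, depth and the gates, and r is a description. Closest to Atp1b1 were Mb21d2, Zyx and Mocs2, each at 0.99. Closest to Fxyd7 were Cpne5, Rap1gap2 and Lrrc4b, each at 0.99, of which Lrrc4b alone was among the closest 3 at a pseudocount of 1, and closest to Fxyd6 were Hmbox1 (0.97), Ptprf (0.97) and Mtmr6 (0.96). Atp1b3 had Tnip1 (0.95), Ptp4a3 (0.94) and Cmpk2 (0.92), and Fxyd5 had Fbxo17 (0.97), Itpkb (0.93) and 4933412E12Rik (0.92). Atp1b2 had Zfp354c (0.98) and Unc5a (0.98), but neither was among its closest when the pseudocount was 1 in place of 10.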

How the data were processed

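Raw UMI counts per gene and barcode were deposited by the authors for each library, made with Cell Ranger 6.1.1 per the file headers and on GRCm39 per the submitters' processing notes. The annotation version and any filter beyond cell calling are not given in the sources used here. Kept barcodes had 500 genes or more and no more than 20% mitochondrial UMIs (2314, 3716 and 4492, from 37112015, 46150432 and 12290301 deposited UMIs). Counts were summed per library and class and scaled to CPM. Levels carry exact Poisson intervals, and ratios and shares exact Clopper-Pearson intervals, at 95%. A count of 0 was set to 3 UMIs for ratios and for the level that a 0 allows. With 1 library per group no test was made, and called means at least 2-fold among genes at 10 CPM or more on either side. The ratio and thinning steps were tested on simulated data. Members and lists were chosen with earlier results of these data known. Named genes were the members, the other beta and FXYD genes, up to 3 genes of each other list with the largest ratio in Stmn2-only cells at 14 dpi, and the 3 genes closest to each member; some genes under this rule are not reported here. No doublet caller was run, and cells with both gate genes entered neither class. Alternatives covered filters, gates, depth, totals and cells with many UMIs. Python 3.11.15, numpy 2.4.6, scipy 1.17.1, pandas 2.3.3 and matplotlib 3.10.9 were used.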

Additional observations from a re-analysis of the deposited data

Results flagged for a closer look

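Atp1b3 differed between the 14 dpi libraries in opposite directions in the 2 cell classes: its log2 ratio, no supplements over with supplements, was 0.19 in Stmn2-only cells and -0.47 in Col1a1-only cells. It drew attention because the single library of each condition moved 1 way in one class and the other way in the other. The difference between the classes was not tested, and each condition was 1 library.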

How the results depend on the processing

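No paired analysis was possible because each group was 1 library, and no library could be left out of a group. Of 326 recomputed log2 ratios of the 6 genes, 275 moved by less than their counting interval, 50 moved further and 1, past 2-fold as reported, changed sign: Fxyd7 without over with supplements in Col1a1-only cells, at -0.016 with gates from counts thinned to 1000 UMIs. Atp1b3, whose intervals held 0, kept its sign in 5 of 7 alternatives without over with supplements over all kept cells (-0.12 to 0.10), and in 7 of 9 for Stmn2-only over Col1a1-only cells with supplements (-0.36 to 0.01). With all deposited barcodes, 42 of 42 ratios moved by less than their interval. With at least 1000 genes and at most 10% mitochondrial UMIs, the Atp1b1 share of beta UMIs was 93.8% in place of 94.1% with supplements and 54.1% in place of 51.4% at 4 dpi, and the Fxyd7 share of the FXYD UMIs was 2.33% in place of 3.19% with supplements. Without the 5% of cells with the most UMIs, the Fxyd7 share was 26.8% in place of 28.4% without supplements. Members at least 2-fold lower without supplements in Col1a1-only cells were 0 in place of 1 without those cells and with thinned gates. Members at least 2-fold lower in Stmn2-only than Col1a1-only cells with supplements were 1 in place of 0 without those cells, with mitochondrial and ribosomal genes out of the total, and with the mean of per-cell CPM. With every gene that had a UMI counted, beta and FXYD genes at least 2-fold higher were 4 in place of 2 without over with supplements in Stmn2-only and in Col1a1-only cells, 5 in place of 2 for 14 over 4 dpi with supplements, and 4 in place of 2 for Stmn2-only over Col1a1-only cells with supplements. Those lower were then 1 in place of 0 in each 14 over 4 dpi comparison and 3 in place of 1 for the classes with supplements. No share over all genes is given for that setting, so its counts are printed without a reading. The cause of these shifts was not tested, apart from the low counts that the last setting adds. The class-weighted ratio and the values without the cell with the most UMIs were chosen after seeing the data. Depth limited the 4 dpi library, where 369 of 4492 kept cells reached 5000 UMIs.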

Other observations

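The members were also summed over cells marked by other genes of the same libraries. In cells with a UMI of Slc18a3 or Chat, genes of acetylcholine handling in motor neurons (343 with supplements, 488 without), Atp1b1 was at 1083 and 418 CPM, Fxyd7 at 5.97 and 94.1, Fxyd6 at 74.8 and 89.6, and Atp1b2 at 3.37 and 23.0. In cells with a UMI of Mnx1, the gene also called Hb9 (321 and 564), Atp1b1 was at 826 and 269.8 CPM and Fxyd7 at 3.61 and 59.2.

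In cells with a UMI of Mki67 or Top2a, genes of dividing cells (373 with supplements, 654 without and 1414 at 4 dpi), Atp1b1 was at 384, 70.5 and 78.7 CPM, and Fxyd6 at 33.7, 47.5 and 16.3. In cells with a UMI of Acta2 or Tagln, contractile genes of smooth muscle and activated fibroblasts, Fxyd5 was at 10.5, 15.3 and 9.60 CPM in the same order. These values lay above its level over all kept cells in each of the 3 libraries. At 4 dpi the value rested on 21 UMIs, with an interval (5.95 to 14.7) that held the 6.64 CPM of all kept cells. These gates overlap with the classes of the report and with each other, and no difference between them was tested.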
